A study of Mus musculus with 23 samples.

Results

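The skeletal muscle genes described here, 9 of the 23481 genes listed, were measured in RNA pulled down from mouse olfactory epithelium: Atp2a1, Mb, Tmod4, Ckm, Acta1, Myh4, Tnnt3, Tnni2 and Mylpf. They were taken by name, and the names had been selected on the measured levels in these same libraries. Their levels and fold changes are therefore given as a description, and where a fit over all genes also counts them, those counts support nothing. The data comprised 23 RNA-seq libraries from C57BL/6 mice at postnatal day 21, each made from RNA precipitated with an antibody to pS6, the phosphorylated form of a ribosomal protein that marks recently active neurons. Mice were exposed for 1 h to acetophenone, an aromatic ketone, to TMT (trimethylthiazoline, a fox odor), or to a control. The labels give no genetic change in any group. The acetophenone experiment held controls of litters 1 to 5 (n = 5), the 1% dose in litters 3 to 5 (n = 3) and the 100% dose in litters 1 to 3 (n = 3). The TMT experiment held a control, a 1% and a 100% library in each of litters 1 to 4 (n = 4 per group). Litter numbers were not matched between the experiments. Nothing in the labels says whether animals of a litter were pooled, and p-values measure the spread between these libraries.

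Skeletal muscle contracts when calcium released from the sarcoplasmic reticulum binds the troponin complex on the actin filament, which lets myosin heads pull. Most contractile proteins come as a fast and a slow or cardiac form, each from its own gene, and the genes are co-expressed in fibres. Olfactory epithelium is made of sensory neurons, sustentacular cells, basal cells and glands, and striated fibres are no part of it, though muscle lies elsewhere in the head. An input library of the same homogenates was not analysed here, so the amount of a transcript in the tissue and its recovery in the pull-down cannot be told apart, and nor can fewer cells of a type and less RNA per cell.

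On the genome, 5 of the 9 genes lie on chromosome 7, with Tnni2 at 142441808 to 142444410 and Tnnt3 at 142498836 to 142516009 as near neighbours in GENCODE M21 (GRCm38, which is mm10). RefSeq promoter entries matched 7 of the 9 genes. For 4 genes the 250 bases before the RefSeq transcription start in GRCm38.p6 are shown, because these genes stand for different patterns in the levels below: Myh4 had no count in most libraries, Acta1 and Atp2a1 had counts in nearly all and were far higher in a few, and Tmod4 followed another order. Capitals mark the E-box CANNTG (bound by MyoD-type factors), the MEF2 motif, the CArG box (bound by SRF) and TATAAA, each searched on both strands.
Myh4, chr11:67237562-67237811, plus strand: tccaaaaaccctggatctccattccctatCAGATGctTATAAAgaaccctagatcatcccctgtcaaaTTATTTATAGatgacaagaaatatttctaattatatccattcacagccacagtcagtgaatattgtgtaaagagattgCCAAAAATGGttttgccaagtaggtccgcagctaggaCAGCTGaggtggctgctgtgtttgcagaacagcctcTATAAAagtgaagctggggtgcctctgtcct
Acta1, chr8:123894776-123895025, minus strand: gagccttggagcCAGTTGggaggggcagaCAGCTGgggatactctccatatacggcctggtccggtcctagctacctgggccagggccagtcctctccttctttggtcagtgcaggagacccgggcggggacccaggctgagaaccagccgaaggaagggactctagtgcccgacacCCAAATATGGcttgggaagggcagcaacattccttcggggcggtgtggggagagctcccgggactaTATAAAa
Atp2a1, chr7:126463074-126463323, minus strand: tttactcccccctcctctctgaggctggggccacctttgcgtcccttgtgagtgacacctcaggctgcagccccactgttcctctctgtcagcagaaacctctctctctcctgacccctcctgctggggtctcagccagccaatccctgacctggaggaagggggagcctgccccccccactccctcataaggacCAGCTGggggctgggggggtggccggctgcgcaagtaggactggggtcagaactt
Tmod4, chr3:95124264-95124513, plus strand: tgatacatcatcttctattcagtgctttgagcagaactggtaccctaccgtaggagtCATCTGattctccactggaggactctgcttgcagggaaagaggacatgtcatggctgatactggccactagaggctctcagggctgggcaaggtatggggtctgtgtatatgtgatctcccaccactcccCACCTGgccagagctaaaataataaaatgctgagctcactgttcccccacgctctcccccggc
An E-box stood in all 7 matched genes, against 66.2% of 32851 promoters of the same length. The MEF2 motif, held by 2.92% of promoters, stood in Myh4, where it overlaps a TATAAA. A CArG box, held by 1.47%, stood in Acta1 and Myh4, and TATAAA, held by 12.4%, in the same pair. In Tmod4 the search found the E-box and no other of these motifs, as in Atp2a1, Mb, Ckm and Mylpf. A match is a description of the letters and shows no binding.

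Library depth, as counts of reads that align to 1 place, ran from 2118099 to 9526932. Levels are given as CPM, the count scaled to a library total of 1000000. A single count was therefore worth more CPM in the acetophenone libraries than in most TMT libraries, and a level of 0 allows up to 3 counts. Exact Poisson intervals (95%) cover counting error only. The depth of the 1% acetophenone libraries was 2118099 in litter 3, the lowest of all, 3998370 in litter 4 and 3110903 in litter 5.

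Summed over the 9 genes, the level was 285.6 CPM (263.3 to 309.3) in the 1% acetophenone library of litter 3 and 341.9 CPM (324 to 360.5) in that of litter 4. The third 1% acetophenone library, of litter 5, stood at 41.79 CPM (34.91 to 49.62). Each of the other 20 libraries lay between 25.64 and 87.92 CPM, so a pair of libraries stood apart from the rest and from the third library of their own group. The median over all 23 was 49.66 CPM. Group means were 48.27 ± 14.76 CPM (SD, n = 5) in acetophenone controls, 223.1 ± 159.5 (n = 3) at 1% and 35.97 ± 11.57 (n = 3) at 100%. In the TMT experiment they were 64.97 ± 18.2 CPM in controls, 65.53 ± 18.12 at 1% and 40.5 ± 14.26 at 100% (SD, n = 4 each), and these ranges overlapped. Within TMT litters the sum at 100% was below the control in 4 of 4 and below the 1% library in 4 of 4, which was not tested. At 1% acetophenone, against the control of the same litter, the summed level was 8.533 times as high in litter 3, 8.816 times in litter 4 and 0.6133 times in litter 5.

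**Figure D1:**
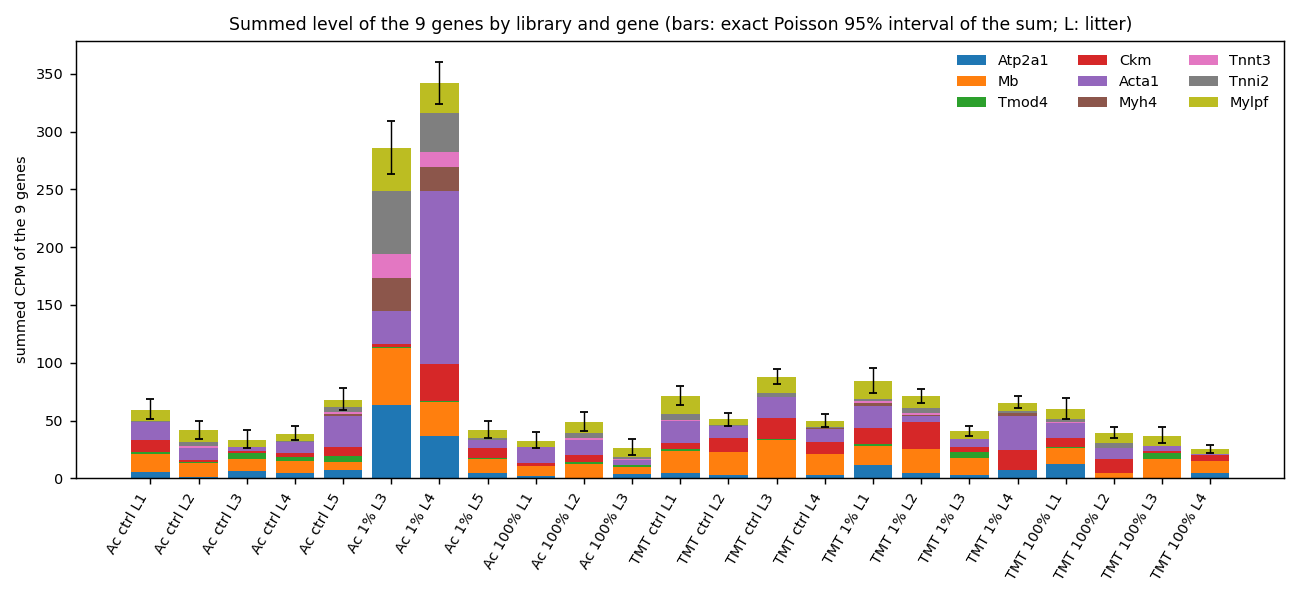
Summed CPM of the 9 genes in each library, stacked by gene, with the exact Poisson 95% interval of the sum; libraries are ordered by group and litter (Ac, acetophenone; ctrl, control; L, litter). The 1% acetophenone libraries of litters 3 and 4 reach 285.6 and 341.9 CPM, and the highest of the others is 87.92.

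The makeup of the sum differed between these libraries. In litter 4 Acta1 alone gave 597 of 1367 counts. In litter 3 it gave 61 of 605, behind Atp2a1 with 134, Tnni2 with 115, Mb with 104 and Mylpf with 78. Ckm gave 127 counts in litter 4 and 5 in litter 3.

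Myh4 encodes myosin heavy chain IIb, the motor of the fastest fibres. It had 0 counts in 14 of 23 libraries. In the 1% acetophenone libraries it stood at 28.8 CPM in litter 3, 20.76 in litter 4 and 0.3215 in litter 5, while the acetophenone controls were at 0 in 4 libraries and at 1.63 CPM in litter 5. At 100% acetophenone it was at 0 in 2 libraries and at 0.4572 CPM (1 count) in litter 3. TMT libraries at 1% held 2.439, 1.203, 0 and 2.204 CPM in litters 1 to 4, and among the 8 other TMT libraries 1, the control of litter 4, held any count. With the control of the same litter, at 0, set to 3 counts, Myh4 was 22.94-fold higher at 1% acetophenone in litter 3 and 28.73-fold higher in litter 4. These ratios carry no counting interval.

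Other myosin heavy chains were read beside it. Myh1, which encodes the fast IIx chain, gave 63 counts to Myh4's 61 in litter 3, so that Myh4 was 49.19% of the pair (95% exact binomial interval 40.11 to 58.32). In litter 4 it gave 10 counts to 83, and Myh4 was 89.25% (81.11 to 94.72). These intervals did not overlap, so the IIb to IIx balance differed between the libraries beyond counting error. Slow Myh7 had 1 count in litter 3 and 6 in litter 4. The developmental chains Myh3 and Myh8 had at most 2 counts each in both. Reads that align to several of these similar genes are not in these counts. In the 1% TMT library of litter 4 the counts of Myh4 and Myh1 were 21 and 23, and in that of litter 2 they were 9 and 13.

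Mylpf encodes the fast regulatory myosin light chain and was counted in all 23 libraries. Its level was 36.83 CPM in litter 3, 25.76 in litter 4 and 7.072 in litter 5 at 1% acetophenone. The 5 acetophenone controls held 9.95, 10.48, 6.277, 6.022 and 6.194 CPM in litters 1 to 5. No other library passed 15.97 CPM, the TMT control of litter 1. Against the same litter's control Mylpf was 5.867 times as high in litter 3 and 4.278 times in litter 4.

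Acta1 is skeletal alpha-actin, the thin filament itself. Its level at 1% acetophenone was 28.8 CPM in litter 3, 149.3 in litter 4 and 6.108 in litter 5. Acetophenone controls held 15.41, 10.83, 2.929, 9.153 and 26.73 CPM in litters 1 to 5. The library of litter 4 was thus far above all others, whereas that of litter 3 was below the 1% TMT library of litter 4, at 30.02 CPM. Within litters the ratio to control was 9.832 in litter 3, 16.31 in litter 4 and 0.2285 in litter 5.

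Tnni2 and Tnnt3 encode fast troponin I, the inhibitory subunit, and fast troponin T, which ties the complex to tropomyosin. Tnni2 stood at 54.29, 34.01 and 1.607 CPM at 1% acetophenone in litters 3 to 5, and at no more than 4.914 CPM in any other library. Tnnt3 stood at 20.77, 13.01 and 0 CPM in the same litters and reached 2.091 CPM at most elsewhere. Both genes thus separated the litter 3 and litter 4 libraries from all 21 others. In the control of litter 3 Tnni2 had 1 count, which gives a ratio of 129.8 with a lower bound of 22.83. In litter 4 the ratio was 23.54 (lower bound 10.54). Tnnt3 was 16.55-fold higher in litter 3 with its control, at 0, set to 3 counts, a ratio that has no counting interval. In litter 4, with 1 control count, the Tnnt3 ratio was 53.99 (lower bound 9.273).

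Atp2a1 encodes SERCA1, the calcium pump of the fast sarcoplasmic reticulum. At 1% acetophenone it stood at 63.26, 36.76 and 4.822 CPM in litters 3 to 5. The controls of litters 1 to 5 held 5.456, 1.048, 6.277, 4.576 and 6.846 CPM, and the highest of the TMT libraries was 12.72 CPM. Ratios to the litter control were 10.08 (lower bound 5.897), 8.034 (4.965) and 0.7043 (0.3377). An exon of Rabep2 lies on the other strand of Atp2a1, and whether counting used strand is not given in the sources used here. Rabep2 did not follow Atp2a1: it had 77 counts in litter 3 at 1% and 78 in its control, and 111 against 173 in litter 4.

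Mb is myoglobin, which stores oxygen in oxidative fibres. It was present in every library, at 49.1, 29.01 and 11.89 CPM at 1% acetophenone in litters 3 to 5. Acetophenone controls held 16.05, 12.23, 10.88, 10.12 and 7.498 CPM. The TMT control of litter 3, at 33.38 CPM, lay above the litter 4 library, so Mb did not separate the pair. The lowest value was 0.105 CPM, a single count in the 1% TMT library of litter 4, in which Acta1 had 286 counts and Ckm 163. Tnnt3 and Tmod4 had 0 counts there. The genes therefore did not move together in that library. Exons of Apol6 and Gm49540 lie on the strand opposite to Mb. Apol6 had 6 counts in the litter 3 library and 11 in that of litter 4.

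Ckm, muscle creatine kinase, buffers ATP. It read 2.361 CPM in litter 3, 31.76 in litter 4 and 9.001 in litter 5 at 1% acetophenone, against 2.092, 3.131 and 7.824 in the controls of those litters. Ckm was therefore high in litter 4 (ratio 10.14) and near its control in litter 3 (1.128), although Atp2a1, Myh4, Tnnt3, Tnni2 and Mylpf were high there. Values in the 12 TMT libraries ran from 2.329 to 22.86 CPM.

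Tmod4 encodes tropomodulin 4, which caps the pointed end of the thin filament in skeletal muscle. It was at 1.416, 1.501 and 0.9644 CPM at 1% acetophenone and at 4.603, 4.095 and 4.89 CPM in the controls of the same litters. It was thus lower at 1% in 3 of 3 litters, from 3 against 11, 6 against 17 and 3 against 15 counts. Its highest value, 5.131 CPM, was in the 1% TMT library of litter 3, where Myh4, Tnnt3 and Tnni2 had 0 counts. Tmod4 thus did not share the high levels of the other 8 genes in these libraries, and Ckm did not share them in litter 3.

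**Figure D2:**
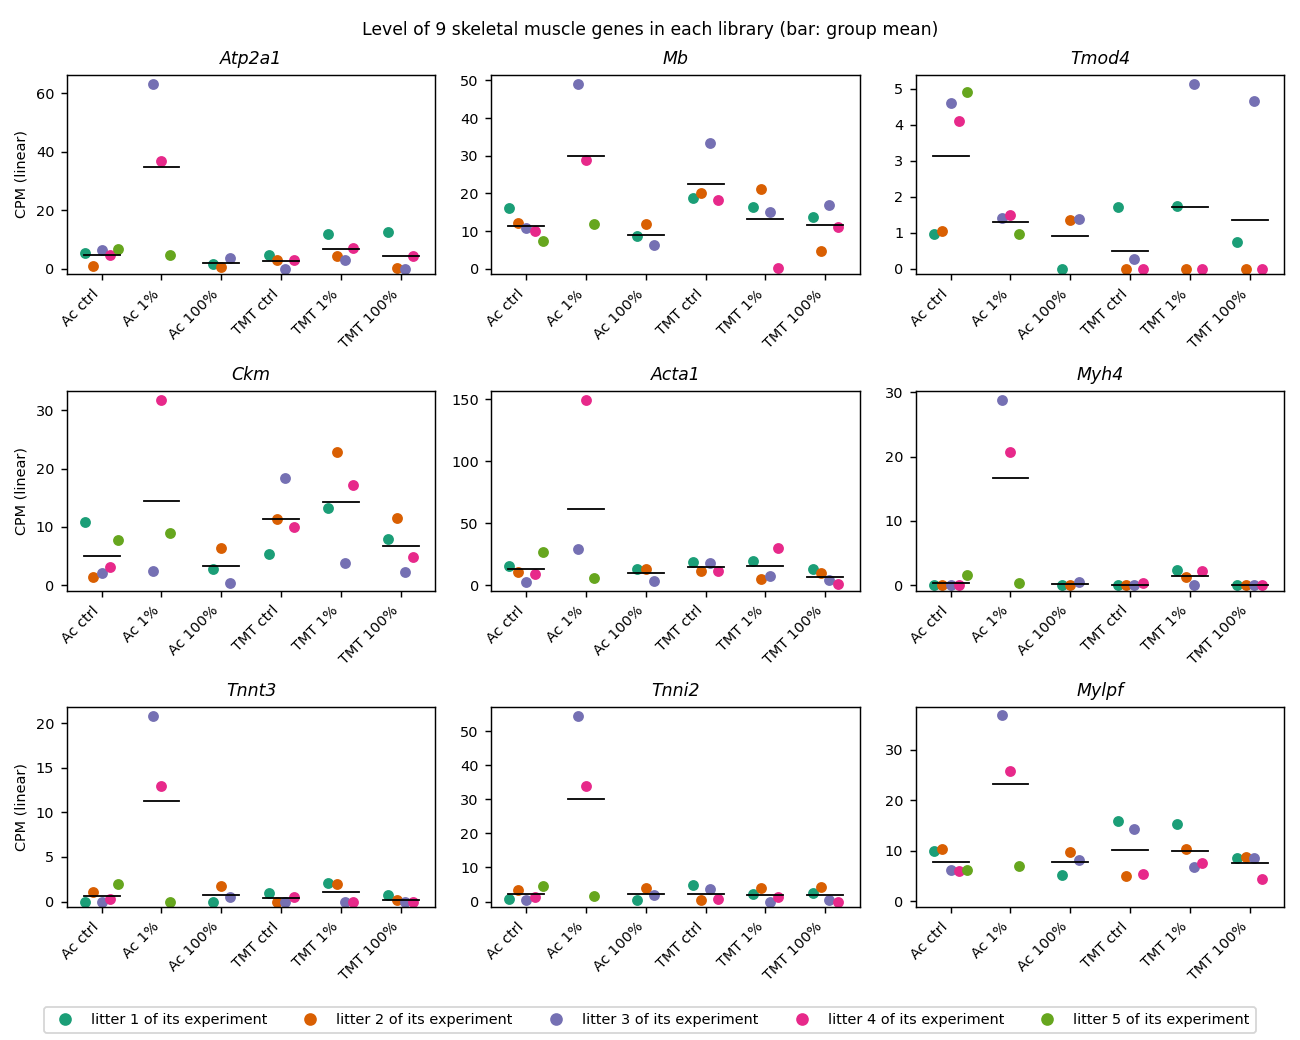
CPM of each gene (linear axes, one scale per panel) in the 23 libraries by group, coloured by litter number within its experiment, with group means as bars. For Atp2a1, Myh4, Tnnt3, Tnni2 and Mylpf the 2 highest points are the 1% acetophenone libraries of litters 3 and 4, and Tmod4 shows no such order.

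Of the 9 genes, 6 had their highest level in the litter 3 library and 2 in the litter 4 library. The genes were selected on these libraries, so where they peak restates the selection. Among 14360 genes with a mean of at least 1 CPM these libraries were the highest for 9.338% and 3.092%. Those shares were not matched on level, and that of the 100% acetophenone library of litter 3 was 11.12%. Over the 23 libraries the Spearman correlation of each gene with the mean of the other 8, on log2(CPM + 1), was 0.64 for Tnnt3 and Tnni2, 0.62 for Mylpf, 0.57 for Acta1, 0.48 for Myh4, 0.45 for Atp2a1, 0.35 for Mb, 0.18 for Ckm and 0.03 for Tmod4. The points share libraries, litters and depth. Among 14351 genes with a mean of at least 1 CPM, those most like the mean of the 9 were Ccl4 (0.76), Tchh, Siah1b and Ttyh1 (0.67 each), Ccl5 (0.66) and Tnnc2 (0.65). After the mean of each experiment was taken off, the order began with Tnnc2 (0.74), Ccl4 (0.71) and Polr2h (0.68). Tnnc2, fast troponin C, was the only gene of the other muscle lists among the first 15 by either measure. Those lists do not hold every gene that muscle expresses. Ccl4 and Ccl5, which encode chemokines, had means of 1.292 and 4.156 CPM and Tnnc2 one of 4.207 CPM, so the order of all 3 rests on few counts.

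Fast and slow forms were compared per kb of transcript, since levels of different genes can be compared only per length. In litter 3 at 1% acetophenone Tnnt3 was 51.65% of Tnnt3 and Tnnt1 together, and in litter 4 31.19%, and these were the highest and second highest values of 23 (median 0.879%). Tnnt1, slow troponin T, had 42 counts in litter 3 and 102 in litter 5, where Tnnt3 had 0. Tnnt1 was counted in all 23 libraries, at 19.83 to 57.94 CPM, and which cells it came from was not tested. The troponin T share is therefore no measure of fast against slow fibres. For the calcium pumps Atp2a1 was 19.92% and 12.81% of Atp2a1 and Atp2a2, again the top values (median 2.301%), Atp2a2 being a pump that many cell types also express. Tnnt3 and Atp2a1 were among the genes selected on these libraries, so their top shares restate the selection. Troponin I was nearly all fast in the litter 3 and litter 4 libraries, with 99.42% and 98.07% Tnni2, but the median over 22 libraries with a value was 100%. The same was true of Mylpf over Myl2 (98.91% and 99.17%) and of Acta1 over cardiac Actc1 (98.42% and 100%), pairs in which the fast gene led in every library by these counts. With reads of several alignments counted too, Acta1 was under 50% in 6 of 23 libraries. Mybpc2 broke the order: it was 24.8% of Mybpc2 and Mybpc1 in litter 3 and 65.06% in litter 4, within the range of all libraries (17.85 to 95.6%).

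**Figure D3:**
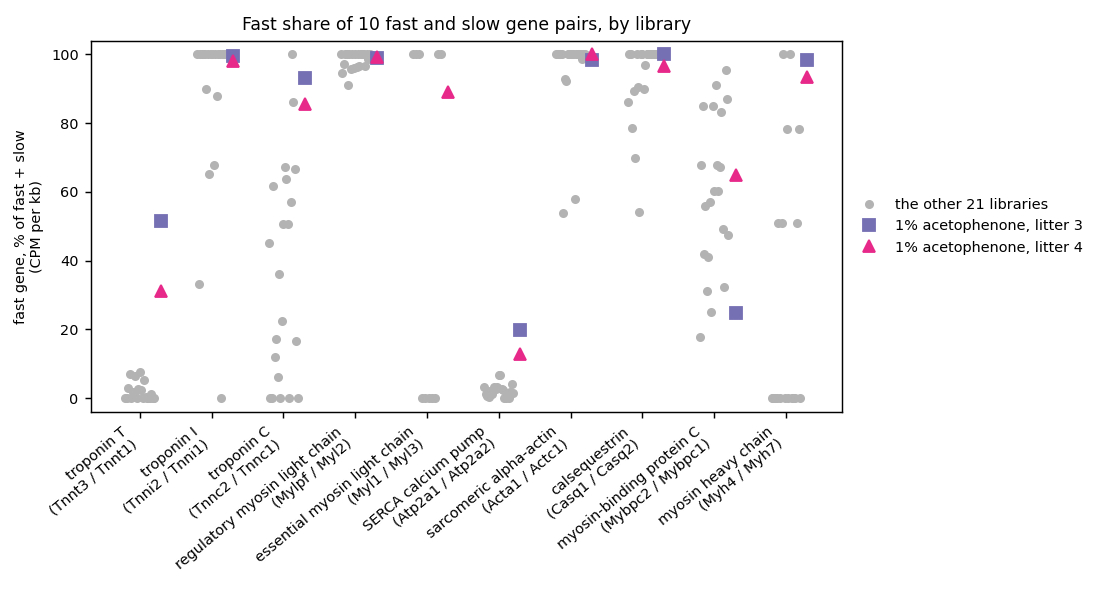
Share of the fast gene in 10 fast and slow pairs, from CPM per kb, in each library with a count of either gene; the 1% acetophenone libraries of litters 3 and 4 are marked and were singled out after their values were seen. For troponin T (51.65% and 31.19%) and the SERCA pump (19.92% and 12.81%) both marked points lie above all others. The fast genes of these pairs, Tnnt3 and Atp2a1, were selected on these libraries, so this order restates the selection.

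A further 58 muscle genes, in lists of fast fibre, sarcomere, calcium coupling, energy and slow or cardiac genes, were read in the same libraries. Of these, 16 (27.59%) were highest in the litter 3 library and 10 (17.24%) in that of litter 4. Of the 32 with a mean of at least 1 CPM, the filter behind the shares of all genes given above, 9 (28.12%) and 5 (15.62%) were highest there, against 9.338% and 3.092%. The mean ran over all 23 libraries, so a gene can pass through the library where it peaks. Myh1, with a mean of 1.873 and a median of 0.3123 CPM, stood at 29.74 in litter 3. The lists were chosen with earlier results known and litter 3 had the lowest depth, so these shares are a description. Against the control of the same litter, 20 of 42 genes above 3 counts were higher and 6 lower in litter 3, with counting intervals that exclude a ratio of 1 or, where one library had 0, a count above the 3 that a 0 allows at equal depth. The tally was 24 higher and 2 lower of 46 in litter 4, and 3 higher and 11 lower of 35 in litter 5. Counting intervals are narrower than the spread between libraries: in the 1% TMT library of litter 2, 14 of 37 were higher and 14 lower. The rule for a 0 is looser than such an interval. The same tally was not made over all genes, so these counts show no rise particular to muscle genes. Fast fibre genes summed to 98.67 CPM in litter 3 and 68.78 in litter 4, the highest and second highest of 23 (median 19.79). Calcium coupling genes ranked 1 and 8 of the 23 libraries in litters 3 and 4, sarcomere genes 3 and 16, energy genes 8 and 1, and slow or cardiac genes 3 and 6. Tnnc2 stood at 25.02 and 30.01 CPM, against 0.8369 and 0.2409 in the litter controls, and no other library passed 8.148. Xirp2, an actin-binding protein of striated muscle, had 16 counts in litter 3 and 7 in litter 4 and 0 in all 21 other libraries. Ckmt2, the mitochondrial creatine kinase of striated muscle, had 29 and 9 counts where both controls had 0, and Csrp3, a Z-disc protein, 27 and 16. Xirp2, Ckmt2 and Csrp3 were named after their values were seen. Actn3, fast alpha-actinin, was lower by those intervals, with 7.082 and 4.252 CPM against 20.92 and 8.912 in the controls. Ldb3, Myom1, Pygm, Tnnc1 and Atp2a2 in litter 3, and Ryr1 in litter 4, were the others that were lower.

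Lists of genes for other tissues were summed in the same way. Among 23 libraries, litter 3 and litter 4 ranked 6 and 12 for smooth muscle genes, 4 and 22 for bone and cartilage, 5 and 20 for fat and 7 and 23 for red cells. Fat genes ran from 3.603 to 35.99 CPM over all libraries, with 1 of 5 genes at 0 everywhere, and stood at 25.02 CPM in litter 3 and 7.253 in litter 4. Bone and cartilage genes ran from 261.7 to 1090 CPM and stood at 663.3 and 308.9. Heart genes (6) stood at 13.69 CPM in litter 3 (rank 2) and 5.252 in litter 4 (rank 17), in a range of 2.25 to 16.66. The regulators and endplate genes of muscle, such as Myod1, Myog and Chrna1, ranked 13 and 21 with 2.833 and 1 CPM in sum (range 0.1562 to 7.315). Markers of mature olfactory neurons summed to 4903 and 6049 CPM, in a range of 1630 to 7550, and those of sustentacular cells to 4946 and 5167, in a range of 3965 to 9364. Whether muscle taken with the epithelium set the 9 genes' levels was not tested.

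Each comparison was fitted over all genes with edgeR's quasi-likelihood test, and a gene was called at a Benjamini-Hochberg adjusted p under 0.05. A filter on low counts kept 7 of the 9 genes in 5 comparisons and 4 in the sixth, 100% acetophenone against control. Myh4 and Tnnt3, whose counts lie mostly in a pair of libraries, passed it in none. The 6 comparisons share controls within each experiment. The rule that chose the genes used these libraries, so nothing is read from the counts called.

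For 1% acetophenone against control (litters 3 to 5), the log2 fold change was 3.80 ± 1.30 (SE) for Tnni2, 2.59 ± 0.86 for Atp2a1, 2.38 ± 1.27 for Acta1, 1.93 ± 0.62 for Mylpf, 1.86 ± 1.01 for Ckm, 1.67 ± 0.56 for Mb and -1.72 ± 0.52 for Tmod4. These values came from a fit without a litter block. The median of these 7 was 1.93, and that of all 12077 genes tested was 0.01. With litter as a block the median of the 7 was 1.73. None of the 7 was called, with 0% of all genes called, 0.00828% with litter as a block and 0.00828% by DESeq2. At an unadjusted p under 0.05, 5 of the 7 passed, with 0.77% of all genes, and with litter as a block 5 of 7 and 1028 of 12077 genes. The genes were selected on these libraries, so these counts restate the selection. For Acta1, Atp2a1 and Tnni2 the 1% library of litter 5 lay within the range of the 3 controls, and for Ckm that of litter 3 did. Without litter 5 the median was 3.16, over all 9 genes. Without the 1% library of litter 3 it was 1.96, and without that of litter 4 1.61.

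For 100% against 1% acetophenone, with litter as a block over all 11 libraries, the values were -3.79 ± 1.34 for Tnni2, -3.59 ± 0.85 for Atp2a1, -2.30 ± 0.45 for Mb, -2.21 ± 1.14 for Acta1, -2.02 ± 0.56 for Mylpf, -1.93 ± 1.20 for Ckm and 0.43 ± 1.19 for Tmod4 (log2 fold change ± SE). Their median was -2.21, against 0.00 for all 12873 genes. edgeR called none of them, with 0% of genes called with or without the block. DESeq2 called 1, Atp2a1, where it called 6 genes in all (0.0466%). At an unadjusted p under 0.05, 4 of 7 passed, with 6.27% of all genes. Leaving out litter 5, which held the 1% library with low values, gave calls for Atp2a1, Acta1 and Tnni2, which the choice of these genes and of that litter fixes. With the 1% libraries of litters 3 and 4 left out, the median was -0.56 and none of the 7 was among 32 genes called; 1 library then stands for the 1% dose and is assumed to vary like the other groups.

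In 100% acetophenone against control, 4 genes were tested. Their log2 fold changes were -0.04 ± 0.79 for Acta1, -0.26 ± 0.53 for Mylpf, -0.59 ± 0.50 for Mb and -1.15 ± 0.93 for Atp2a1, with a median of -0.43. None was called, with 0% of genes called, 0.0951% with the litter block, 0.0432% by DESeq2 and 0.527% at an unadjusted p under 0.05. The median took the other sign, at 0.08, when litter 1 was left out, but only 3 genes were then tested.

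In the TMT experiment the medians of the 7 tested genes were 0.03 for 1% against control, -0.30 for 100% against control and -0.36 for 100% against 1%. With litter as a block they were 0.07, -0.88 and -0.49. Acta1 gave 0.03 ± 0.67, -1.03 ± 0.68 and -1.07 ± 0.68 in that order, and Ckm 0.31 ± 0.59, -0.68 ± 0.60 and -0.99 ± 0.60. None of the 7 was called and none had an unadjusted p under 0.05 in any of the 3. For 1% TMT the share of all genes called was 0%, with 0.00756% under the litter block, 0.0302% by DESeq2 and 4.29% unadjusted. For 100% TMT it was 0%, 2.37%, 3.5% and 14.7% in the same order. For the doses against each other it was 0%, 0%, 0.136% and 5.27%.

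**Figure D4:**
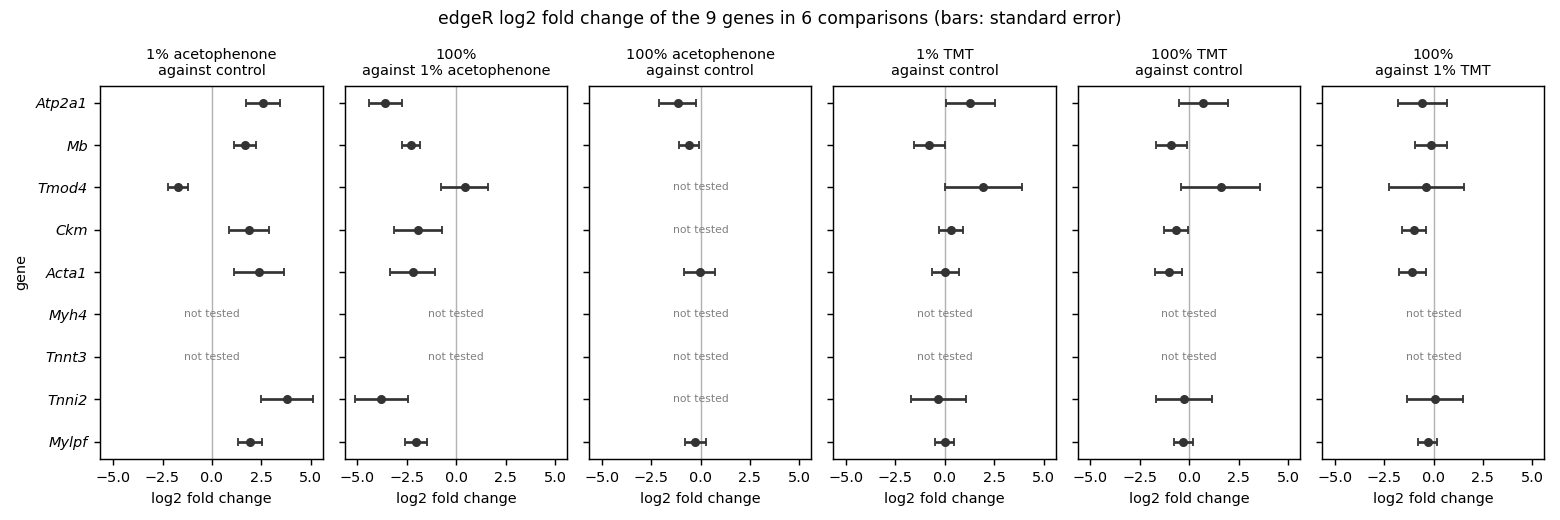
edgeR log2 fold change of each gene with its standard error in the 6 comparisons; "not tested" marks genes removed by the filter on low counts. At 1% acetophenone against control 6 of 7 points lie above 0 and Tmod4 lies below it, at -1.72.

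Of the 58 further muscle genes, the filter kept 23 at 1% acetophenone against control, and edgeR and DESeq2 each called 0 of them. An edgeR unadjusted p under 0.05 was reached by 1, with a fold change below 0, beside 0.77% of all genes tested. The median log2 fold change of the 23 was 0.07, with 14 above 0, as were 50.7% of all genes tested. Without the filter on low counts all 58 were fitted, with a median of 1.14 and 44 above 0. Over the 18966 genes fitted in that way the median was 0.01, with 50.9% above 0. The genes so added had few counts. Of the 58, 5 had an unadjusted p under 0.05, 4 of them above 0, beside 167 of the 18966 genes. Between the acetophenone doses 25 were kept and 0 called by edgeR or DESeq2, with a median of -0.35. At an edgeR unadjusted p under 0.05, 3 of the 25 passed, beside 6.27% of all genes. Without the filter the median of the 58 was -0.77 there, with 19 above 0, as were 48.8% of all genes. At 100% acetophenone 21 were kept and 0 called, with 0 unadjusted and 0 by DESeq2. In each TMT comparison 26 were kept and 0 called, with 2 to 3 at an unadjusted p under 0.05. All genes passed that threshold at 4.29% for 1% TMT, 14.7% for 100% TMT and 5.27% between the doses. By DESeq2 the number was 0 at 1% TMT and 0 between the doses. With litter as a block edgeR called 1 at 100% TMT against control, Atp2a2, at a log2 fold change of 0.80 (adjusted p = 0.0347), and DESeq2 also called 1. That 1 call of 26 stands beside 2.37% of all genes called under the block and 3.5% by DESeq2. The lists hold several genes that other cell types express, such as Tpm2 and Atp2a2.

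Counting only reads with 1 alignment touched some fast genes. In the last deposited column, which also takes in reads with several alignments, Myh4 had 106 and 126 in place of 61 and 83 in litters 3 and 4, and Acta1 70 and 691 in place of 61 and 597. Tnnt3, Tnni2, Mylpf, Mb, Ckm and Tmod4 had the same totals in both columns. Myl1, the fast essential light chain, had 0 and 7 in the first column and 56 and 85 in the last, where no other library passed 30. In that column it therefore joined the fast genes that were high in these libraries.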

How the data were processed

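RNA from 23 pull-downs was reverse transcribed, amplified and made into Nextera libraries, per the labels. Bowtie, bedtools and the mm10 build are named in the submitters' processing notes; their versions, the annotation and any strand setting were not given in these sources. Each deposited table lists 23481 genes and 20 value columns without a header. The first deposited column holds whole-number counts, read from the values as counts of reads with 1 alignment; the last deposited column holds estimated counts that include reads with several alignments, rounded before use, and 18 columns were not used. Comparisons used edgeR 4.0.16 (TMM, filterByExpr with a minimum count of 10, quasi-likelihood F test, 2-sided, Benjamini-Hochberg over all genes tested); DESeq2 1.42.0 was an alternative. Code was tested on simulated data. Transcript lengths came from GENCODE M21 and promoters from RefSeq (GRCm38.p6).

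The genes and lists were chosen with earlier results of these data known. The genes named are the 9, the muscle lists and fast and slow pairs, and the first of the 15 most correlated by each measure. Counts of highest libraries, litter ratios and the myosin makeup were chosen after values were seen. Ratios to litter controls carry exact conditional 95% intervals. A control at 0 was set to 3 counts per library, and such ratios carry no interval. Labels name the litter, so numbers pair libraries: deviations from group means correlated at 0.67 to 0.92 within litters for acetophenone against control and at -0.06 to 0.55 for TMT. Codes in the library titles group the litters (acetophenone 1, 2 and 3, 4 and 5; TMT 1, 2 to 4); the labels do not say what they mark, and all libraries of a litter carry 1 code.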

Additional observations from a re-analysis of the deposited data

Results flagged for a closer look

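Within groups of 4 or 5 libraries, 39 sets of values (9 genes and their sum) were checked for a library far from the others, and 6 were marked by Dixon's criterion at 95%; chance marks about 1 in 20. The acetophenone groups of 3 were too small for this check, so the 1% libraries of litters 3 and 4 were not judged by it. Myh4 stood at 1.63 CPM in the acetophenone control of litter 5 and at 0.3143 CPM in the TMT control of litter 4, with 0 in all other libraries of each group. There any count would be marked, and the second value is 2 counts, under the 3 that a 0 allows. Mb stood at 33.38 CPM in the TMT control of litter 3, where the next control was at 20.14 CPM. Tmod4 stood at 4.659 CPM in the 100% TMT library of litter 3, next 0.7485, and at 1.72 CPM in the TMT control of litter 1, next 0.2628. Mylpf was low in the 100% TMT library of litter 4, at 4.432 CPM, where the other 3 lay between 8.607 and 8.852.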

How the results depend on the processing

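The count of further muscle genes called stayed at 0 in all 6 comparisons under other size factors, without the low-count filter, with the last column and without each litter in turn; it was 1 at 100% TMT against control with the replicate block (litter as a block) and 1 with DESeq2. The replicate block changed no other call among the muscle genes. The median log2 fold change of the 7 genes tested between acetophenone doses moved to -0.56 without the 1% libraries of litters 3 and 4. That setting was chosen after seeing the data, and under it Acta1 became 2.04 and Tnni2 1.80. Tmod4 in that comparison was -0.52 with no replicate block and -0.38 to 0.88 without single litters. Without single litters the median ran from -0.65 to 0.08 at 100% acetophenone against control and from -0.06 to 0.39 at 1% TMT against control. The genes kept by the filter changed too, from 3 to 5 in the first case and from 6 to 7 in the second. The cause of these changes of sign was not tested. The highest summed level was 6.885 times the median of the 23 libraries, 6.576 times on TMM-scaled totals and 8.085 times with the last column. In the 1% acetophenone library of litter 4 the fast gene led in 8 of 10 pairs with either column, all but troponin T and the SERCA pump. By the first column the same pairs were led by the fast gene in the TMT control of litter 4, some on 1 or 2 counts. The number of pairs therefore does not set the 1% acetophenone library apart. At these depths a gene with 0 counts in a library allows up to 3.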
